A study of Homo sapiens with 8 samples.

Results

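The 8 genes described here are 6 genes of striated muscle (MYL4, TNNT1, TNNC1, ACTC1, DES and MYOD1) and 2 creatine kinases (CKM and CKB), taken as every probe that the platform annotation assigns to these symbols. They had 10 of the 48801 probes read and were 8 of 18664 genes with a probe that has a single symbol. The samples were RKO cells, a human colon carcinoma line, measured as total RNA on Illumina HumanWG-6 v3 arrays, on which each bead type carries 1 probe sequence. All cells were transfected with 100 nM siRNA for 24 h and then given drug or PBS, which made 4 groups of 2 arrays: SRCAP siRNA with 1 µM 5-Aza-CdR, SRCAP siRNA with PBS, non-target (NC) siRNA with 1 µM 5-Aza-CdR, and NC siRNA with PBS. By the labels drug or PBS lasted 72 h. The study's methods give the drug a briefer exposure and a later RNA collection, so only the groups are used. The siRNA effect is that of a transient transfection in 1 cell line, and no group was left untransfected. Whether the replicates of a group are separate cultures is not stated in the labels. The p-values therefore reflect variation among these arrays alone, and some of it may be technical.

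Contraction in striated muscle comes from myosin thick filaments pulling on actin thin filaments. Myosin light chains such as MYL4, the atrial and embryonic form, bind the myosin neck, and a troponin complex of a calcium-binding, an inhibitory and a tropomyosin-binding subunit sits on the thin filament and gates contraction by calcium. Creatine kinases move phosphate between ATP and creatine to buffer energy, with CKM the cytosolic form of muscle and CKB that of brain and many other tissues. MYOD1 is a transcription factor that can start the skeletal muscle programme and binds E-boxes, which have the letters CANNTG. 5-Aza-CdR is a cytosine analogue that traps DNA methyltransferases, so that methylation at CG dinucleotides is lost as cells divide. SRCAP is the ATPase of a complex that places the histone variant H2A.Z in nucleosomes, and the design asks whether genes change with the drug in the same way when SRCAP is knocked down.

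Promoter sequences were found for 4 of the 8 genes (CKM, CKB, TNNT1 and ACTC1) in a RefSeq table on GRCh38.p14. They are shown because the drug acts at CG dinucleotides and because these genes differed in their levels, with CKM and CKB called higher with 5-Aza-CdR in at least 1 fit below, TNNT1 measured on all arrays and ACTC1 detected on none. Each line holds the 250 bases before the annotated start, 5′ to 3′ on the minus strand, with every CG in capitals. The windows are chr19:45322876-45323125 for CKM, chr14:103522831-103523080 for CKB, chr19:55149207-55149456 for TNNT1 and chr15:34795550-34795799 for ACTC1.
CKM: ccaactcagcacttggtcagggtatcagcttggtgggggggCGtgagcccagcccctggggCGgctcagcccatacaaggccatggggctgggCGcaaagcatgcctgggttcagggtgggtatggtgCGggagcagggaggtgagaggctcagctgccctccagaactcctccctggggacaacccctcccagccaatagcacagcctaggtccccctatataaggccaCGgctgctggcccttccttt
CKB: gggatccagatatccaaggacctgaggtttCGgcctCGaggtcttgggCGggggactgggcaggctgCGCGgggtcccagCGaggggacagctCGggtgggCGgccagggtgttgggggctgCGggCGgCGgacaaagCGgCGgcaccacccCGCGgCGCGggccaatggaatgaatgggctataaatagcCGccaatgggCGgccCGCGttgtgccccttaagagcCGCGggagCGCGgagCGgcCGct
TNNT1: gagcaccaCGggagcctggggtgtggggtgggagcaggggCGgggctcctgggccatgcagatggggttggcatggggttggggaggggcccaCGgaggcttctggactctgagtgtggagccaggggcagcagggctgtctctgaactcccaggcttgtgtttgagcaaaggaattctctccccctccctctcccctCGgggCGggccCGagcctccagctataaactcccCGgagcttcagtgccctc
ACTC1: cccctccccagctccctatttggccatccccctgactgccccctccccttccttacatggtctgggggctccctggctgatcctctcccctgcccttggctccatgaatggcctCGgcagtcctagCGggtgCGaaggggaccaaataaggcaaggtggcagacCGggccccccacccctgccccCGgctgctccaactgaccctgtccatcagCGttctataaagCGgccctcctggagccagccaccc

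The CKB window held 27 CG dinucleotides, and 17.7% of the 35116 promoters in that table held at least as many in 250 bases. The CKM window held 5 (65.7% of promoters held at least as many), and the TNNT1 and ACTC1 windows held 7 each (58.9%). The median promoter held 11. Letters that match CANNTG, which reads as CANNTG on both strands, occurred 2 times in the CKM window, 1 time each in the TNNT1 and ACTC1 windows and 0 times in the CKB window. At least 1 match was present in 61.8% of all promoters. One of the CKM matches was CAGCTG, which 14% of promoters held. These are matches of letters only, and no methylation or binding was measured at these windows here.

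A probe counted as detected on an array where its detection p, from the negative control beads of that array, was under 0.01. Between 17838 and 19767 probes (36.55% to 40.51%) were detected per array, most on SRCAP with 5-Aza-CdR replicate 2, and the lowest detected probe stood at 5.44 to 5.70 on the normalized log2 scale used below. The SRCAP probe (ILMN_1750641) read 6.73 and 6.46 in SRCAP siRNA cells with 5-Aza-CdR and 6.58 and 6.58 in those with PBS, against 6.83 and 7.16 in NC cells with 5-Aza-CdR and 7.19 and 7.07 in those with PBS. Neither siRNA difference of this probe was called (-0.40 ± 0.22, adjusted p = 0.458 under 5-Aza-CdR, and -0.55 ± 0.22, adjusted p = 0.683 under PBS). A further SRCAP probe was detected on no array, so on these arrays the knockdown is read from 1 probe near background. The study also measured the knockdown by RT-PCR, which is not analysed here. Of 12 markers of colon epithelium and carcinoma, KRT8, KRT18, EPCAM and CDX2 were detected on all 8 arrays, and 7, among them the epithelial cadherin CDH1 and the brush border protein VIL1, were detected on none.

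Of the 10 member probes, 3 were detected on all 8 arrays (MYL4 ILMN_1684255, TNNT1 ILMN_2115991 and CKB ILMN_1671478), 1 was detected on 2 arrays (CKM ILMN_1757521), and 6 were detected on no array. Among the 27576 probes with a single symbol, 47.5% were detected on all 8 arrays and 39.5% on none. Detection on 2 or more arrays was needed to enter the test, which CKM reached only through the NC arrays with 5-Aza-CdR. Its entry thus rests on the group where it was high, and the count of called members is a description.

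**Figure D1:**
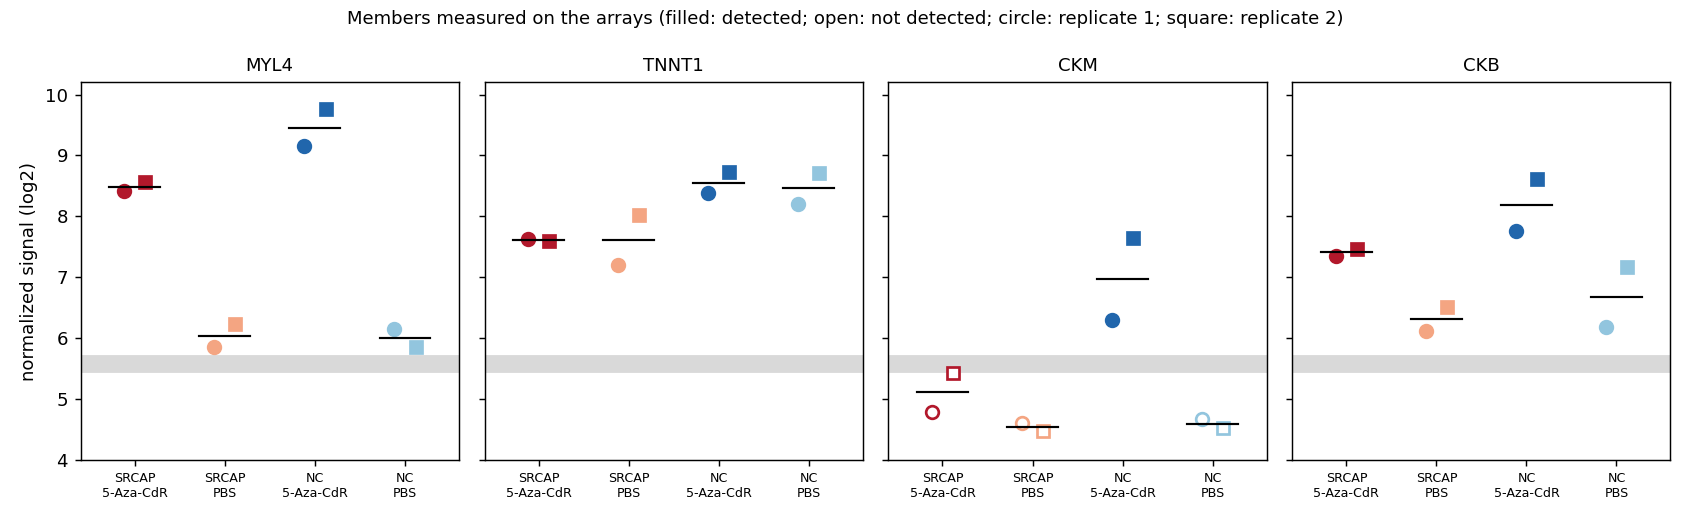
Normalized log2 signal (vertical axis) of the 4 member probes that entered the test, in the 4 groups (horizontal axis). Points are single arrays, lines are means of 2 arrays, open points were not detected and the grey band spans the lowest detected signals of the 8 arrays. MYL4 stood higher in both 5-Aza-CdR groups, CKM was detected on the 2 arrays of NC siRNA with 5-Aza-CdR only, and TNNT1 stood at 7.20 to 8.01 on the SRCAP arrays and at 8.21 to 8.73 on the NC arrays.

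MYL4, the light chain of the thick filament, rose with 5-Aza-CdR under either siRNA. Its probe ILMN_1684255 read 8.41 and 8.56 in SRCAP siRNA cells with 5-Aza-CdR and 5.85 and 6.23 in SRCAP siRNA cells with PBS. In NC cells it read 9.15 and 9.76 with 5-Aza-CdR and 6.16 and 5.86 with PBS. All 4 drug-treated arrays thus lay above all 4 PBS arrays, and the PBS arrays lay close above the detection floor. The increase was 2.45 ± 0.27 on the log2 scale (SE, 5.46-fold, adjusted p = 0.000511) in SRCAP siRNA cells and 3.45 ± 0.27 (10.9-fold, adjusted p = 3.04e-05) in NC cells. Within slides it was 2.56 and 2.34 in SRCAP siRNA cells and 2.99 and 3.90 in NC cells. Both increases were called in all 16 alternatives run, with the smallest at 1.10 in SRCAP siRNA cells and at 1.80 in NC cells.

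The level that MYL4 reached with the drug was lower on both SRCAP siRNA arrays than on both NC arrays, without overlap. This difference was -0.97 ± 0.27 (adjusted p = 0.194), and with the slide as a block, which pairs the arrays that shared a slide, it was called (adjusted p = 0.0378). Under PBS the siRNA difference was 0.03 (95% interval -0.56 to 0.63). The interaction, the drug effect under SRCAP siRNA less the drug effect under NC siRNA, was -0.998 ± 0.38 (unadjusted p = 0.025, adjusted p = 0.999), so the drug effects were not shown to differ. Over all 20328 probes the interaction called 0.0% (0 probes, and 0 with the slide as a block). An unadjusted p under 0.05 was found for 499 probes (2.45%), a smaller share than that threshold would give with no interaction anywhere.

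The second MYL4 probe, ILMN_1716062, was detected on no array. It read 4.71 and 4.64 in SRCAP siRNA cells with 5-Aza-CdR and 4.49 and 4.62 in those with PBS, against 4.44 and 4.63 in NC cells with 5-Aza-CdR and 4.60 and 4.74 in those with PBS. The 2 probes were designed to different transcript records of the gene, and the increase of MYL4 rests on 1 of them.

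CKM, the muscle creatine kinase, was detected only after 5-Aza-CdR in NC cells. It read 4.79 and 5.43 in SRCAP siRNA cells with 5-Aza-CdR and 4.61 and 4.48 in SRCAP siRNA cells with PBS. The NC cells read 6.30 and 7.64 with 5-Aza-CdR and 4.67 and 4.52 with PBS. The 2 NC arrays with the drug differed by more than 1 log2 unit and still lay above all 6 other arrays. In NC cells CKM was at least 2.50-fold higher with the drug than with PBS (2.37 ± 0.39, adjusted p = 0.00702), where "at least" means that the PBS arrays gave only a bound. In SRCAP siRNA cells it was not detected with either treatment, with detection p of 0.347 and 0.0126 with the drug, and the measured difference was 0.56 (95% interval -0.31 to 1.44, adjusted p = 0.877).

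The call for CKM in NC cells was lost without background correction (1.04, adjusted p = 0.111), in the authors' normalized table (0.69, adjusted p = 0.225), without the detection filter (2.37, adjusted p = 0.0654) and with only the 4 NC arrays in the fit (2.37, adjusted p = 0.0623). With 5-Aza-CdR, CKM was at least 2.68-fold lower in SRCAP siRNA cells than in NC cells (-1.86 ± 0.39, adjusted p = 0.0906), which was called with the slide as a block (adjusted p = 0.00751). Within slides the difference was -1.51 and -2.21. The interaction was -1.81 ± 0.55 (unadjusted p = 0.00866, adjusted p = 0.999).

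CKB, the creatine kinase of brain and many other tissues, was detected on all 8 arrays. It read 7.34 and 7.47 in SRCAP siRNA cells with 5-Aza-CdR and 6.11 and 6.52 in SRCAP siRNA cells with PBS. The NC cells read 7.76 and 8.61 with 5-Aza-CdR and 6.18 and 7.16 with PBS. Under each siRNA the drug arrays lay above the PBS arrays, and slide 2 read higher than slide 1 in each group. The drug difference was 1.09 ± 0.37 (adjusted p = 0.353) in SRCAP siRNA cells and 1.52 ± 0.37 (adjusted p = 0.0719) in NC cells. Within slides the difference was 1.23 and 0.95 in SRCAP siRNA cells and 1.59 and 1.45 in NC cells. With the slide as a block both were called (adjusted p = 0.0271 in SRCAP siRNA cells and 0.00164 in NC cells). The siRNA differences were -0.78 ± 0.37 (adjusted p = 0.393) with the drug and -0.35 ± 0.37 (adjusted p = 0.856) with PBS, and the interaction was -0.43 (95% interval -1.58 to 0.73).

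TNNT1, the tropomyosin-binding troponin subunit of slow skeletal muscle, was detected on all arrays and did not separate by drug. It read 7.63 and 7.60 in SRCAP siRNA cells with 5-Aza-CdR and 7.20 and 8.01 in SRCAP siRNA cells with PBS. In NC cells it read 8.38 and 8.73 with 5-Aza-CdR and 8.21 and 8.71 with PBS. The drug difference was 0.01 (95% interval -0.67 to 0.69) in SRCAP siRNA cells and 0.09 (95% interval -0.59 to 0.77) in NC cells. All 4 SRCAP siRNA arrays lay below all 4 NC arrays. The siRNA difference was -0.94 ± 0.30 (adjusted p = 0.263) with 5-Aza-CdR, called with the slide as a block (adjusted p = 0.0378), and -0.86 ± 0.30 (adjusted p = 0.601) with PBS.

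The other 4 genes stayed below detection on every array. TNNC1, the calcium-binding troponin subunit of slow and cardiac muscle, came nearest, at 4.64 to 5.35 with a lowest detection p of 0.0573, reached in SRCAP siRNA cells with PBS. DES, the intermediate filament protein of muscle, read 4.67 to 5.26 (lowest detection p 0.0885). The 2 probes of ACTC1, cardiac alpha-actin, read 4.50 to 5.04 and 4.59 to 4.94. MYOD1 read 4.56 to 4.79 with detection p from 0.308 to 0.709. Within this range the arrays give no order, and a level below the floor is not shown to be absent.

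**Figure D2:**
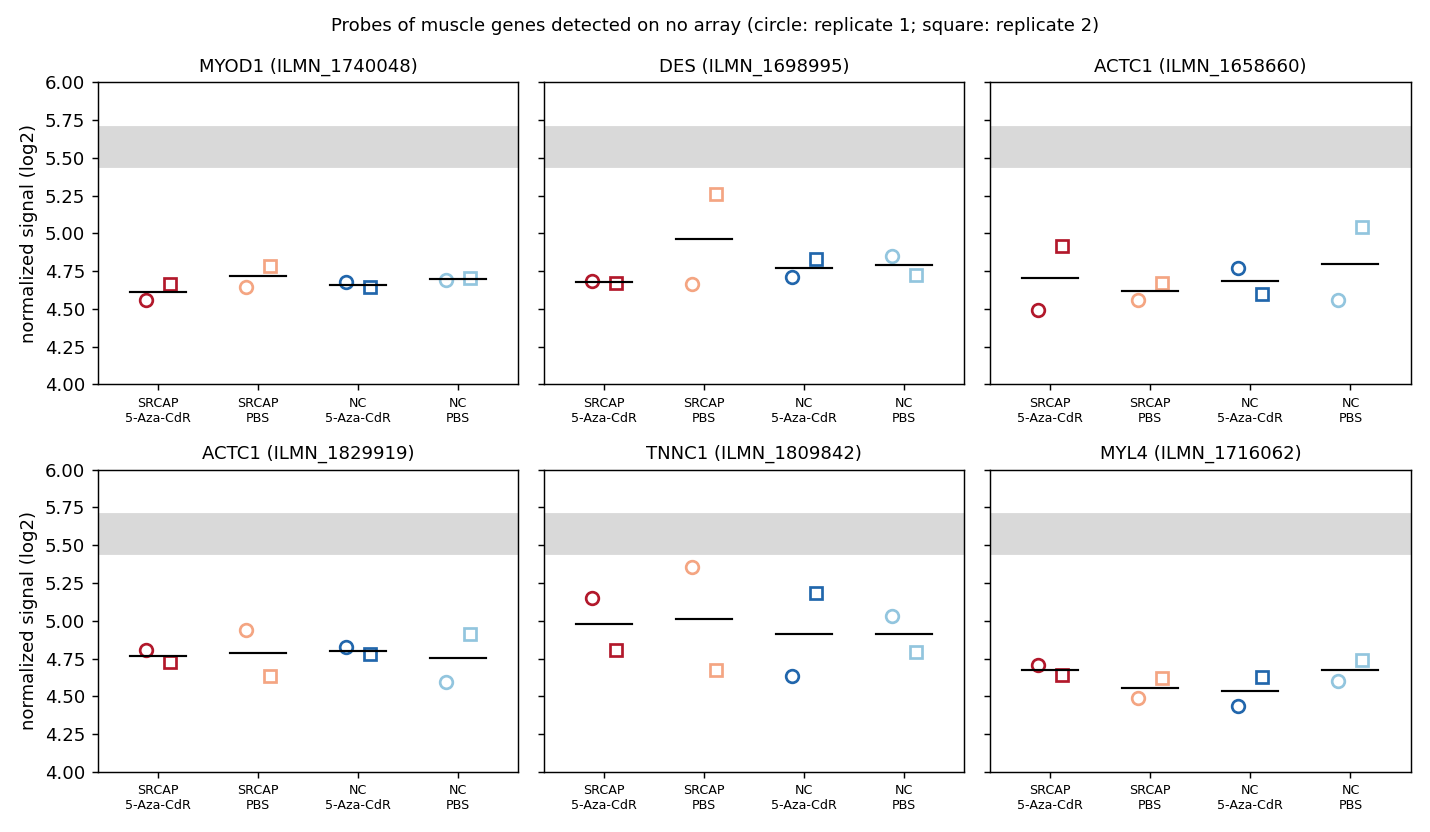
Normalized log2 signal (vertical axis) of the 6 member probes detected on no array, in the 4 groups (horizontal axis). Open points are single arrays, lines are means of 2 arrays and the grey band spans the lowest detected signals, 5.44 to 5.70. All points lie under the band, with TNNC1 reaching 5.35.

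The 4 tested members were thus called 1 time in SRCAP siRNA cells with the drug (MYL4) and 2 times in NC cells (MYL4 and CKM), all higher, where over all 20328 probes tested 1.86% and 2.66% were called higher. With the slide as a block the counts were 2 (MYL4 and CKB, beside 2.49% of all probes) in SRCAP siRNA cells and 3 (MYL4, CKM and CKB, beside 3.21%) in NC cells. For the siRNA effect no member was called, either with the drug, where 0.29% of all probes were called lower, or with PBS, where 0.00984% were. With the slide as a block MYL4, CKM and TNNT1 were called lower in SRCAP siRNA cells under the drug, beside 4.1% of all probes.

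**Figure D3:**
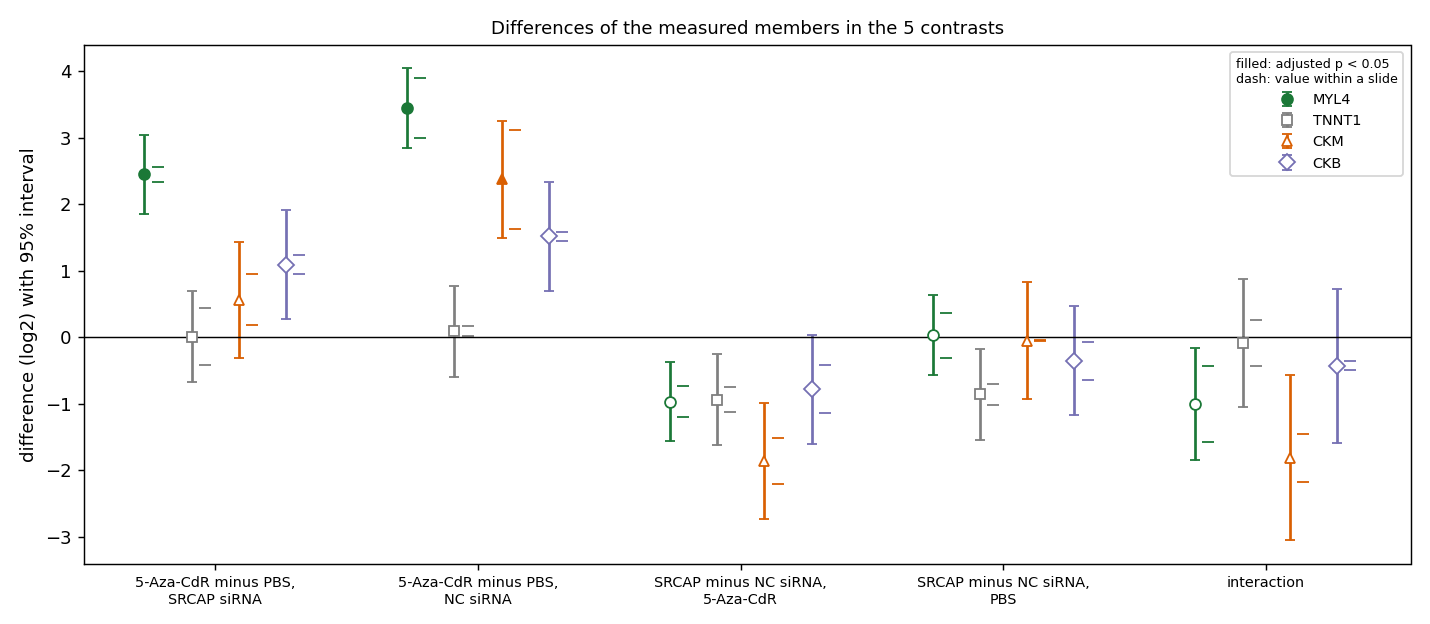
Log2 differences (vertical axis) of the 4 tested members in the 5 contrasts (horizontal axis), with 95% intervals. Filled symbols have an adjusted p under 0.05, and short dashes beside each symbol are the values within slide 1 and slide 2. MYL4 is filled in both drug contrasts (2.45 with SRCAP siRNA and 3.45 with NC siRNA) and CKM with NC siRNA only (2.37).

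In 8 classes of muscle genes the arrays carried probes for 83 of 89 genes beside the members, of which 31 were detected on at least 2 arrays by the probe used and 42 on no array. Over all genes with a single-symbol probe, 11670 of 18664 had a probe detected on at least 2 arrays. Of the 31, 3 were called higher with the drug in SRCAP siRNA cells (TPM2, ACTA1 and ENO3), or 9.68% beside 1.86% of all probes tested, and 2 in NC cells (TPM2 and GAMT), or 6.45% beside 2.66%. Their medians were 0.05 and 0.12, against -0.03 and -0.06 over all probes tested. With the drug, 2 were called lower in SRCAP siRNA than in NC cells (GAMT and TNNI3), or 6.45% beside 0.29% (median -0.05 against 0.03), and none was called under PBS or for the interaction. The filter favours drug calls among genes detected on drug-treated arrays only, such as ACTA1 and GAMT, so these shares are descriptions. For genes detected in 1 drug-treated group only, it also favours calls in the siRNA comparison. A list of 10 nonmuscle and smooth muscle light chains and actins was kept apart, and all 10 were measured, with ACTA2 the 1 called higher under each siRNA.

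**Figure D4:**
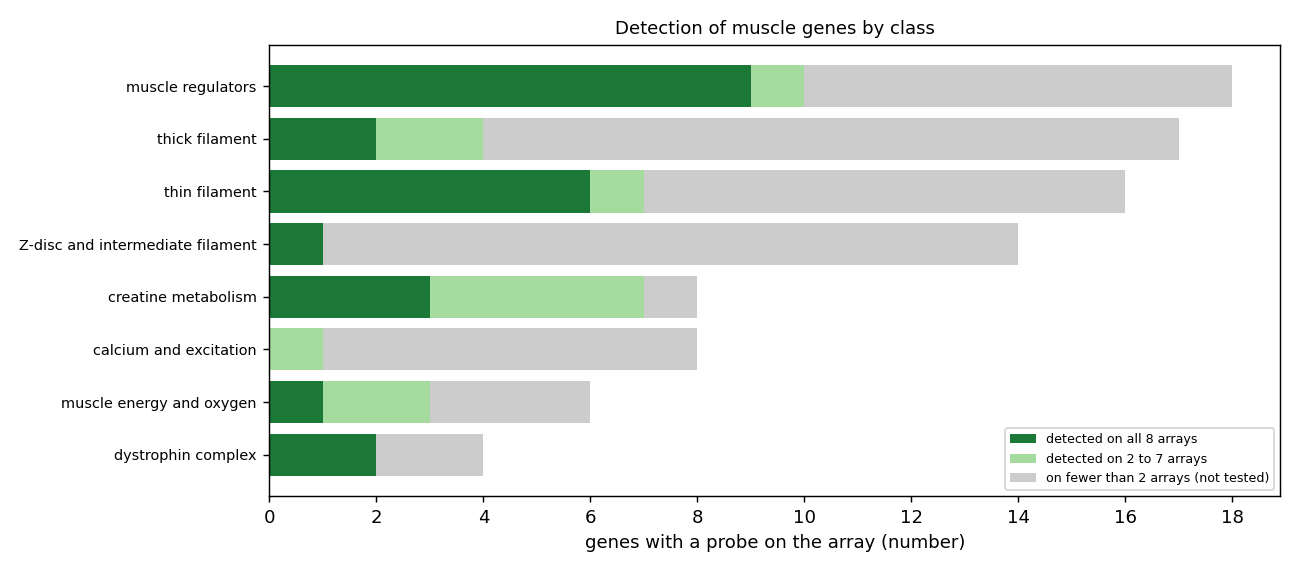
Number of genes with a probe on the array (horizontal axis) in 8 classes of muscle genes, members included, split by detection of the probe used. Of 17 thick filament genes 13 were detected on fewer than 2 arrays, as were 13 of 14 Z-disc and intermediate filament genes and 1 of 8 creatine metabolism genes.

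Most genes of the contractile apparatus were silent by this measure. In the thick filament, the adult and cardiac heavy chains MYH1, MYH2, MYH4, MYH6 and MYH7 and the light chains MYL2, MYL3 and MYL7 were detected on no array, while MYL4 and the embryonic heavy chain MYH3 were detected on all 8. MYH3 read 6.57 and 6.54 in SRCAP siRNA cells with 5-Aza-CdR and 6.61 and 6.86 in those with PBS, against 6.78 and 6.39 in NC cells with 5-Aza-CdR and 6.59 and 5.87 in those with PBS. It was not called in any contrast. Among 8 genes of calcium handling and excitation, 7 were detected on no array, including the calcium release channel RYR1 and the calcium pump ATP2A1. Of the Z-disc and intermediate filament genes, only ACTN2, an alpha-actinin, was detected on all arrays. So were the thin filament genes TPM1, TMOD1 and LMOD3, the sarcoglycan SGCB and dystrophin (DMD), and, outside the muscle classes, MYL5, MYL6, MYL6B, MYL9, MYL12A, MYL12B, ACTB and ACTG1. Each was read from its brightest kept probe, and by that probe none of these genes was called in any contrast.

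In the thin filament, the tropomyosin TPM2, which lies along the actin filament, rose with 5-Aza-CdR under either siRNA. Its probe ILMN_1789196 read 13.02 and 13.04 in SRCAP siRNA cells with 5-Aza-CdR and 9.44 and 9.79 in those with PBS, against 12.84 and 13.29 in NC cells with 5-Aza-CdR and 9.72 and 9.95 in those with PBS. The increase was 3.42 ± 0.24 in SRCAP siRNA cells and 3.23 ± 0.24 in NC cells (adjusted p = 2.56e-05 and 2.37e-05). Unlike MYL4, its drug-treated groups overlapped between the siRNAs, with a siRNA difference of -0.04 (95% interval -0.58 to 0.50). A second TPM2 probe rose by 3.79 in SRCAP siRNA cells and by 3.96 in NC cells. A further probe, detected on 2 arrays, differed by 0.93 under each siRNA and was not called.

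ACTA1, skeletal alpha-actin, read 6.08 and 5.71 in SRCAP siRNA cells with 5-Aza-CdR and 4.79 and 4.77 in those with PBS. In NC cells it read 5.76 and 5.49 with 5-Aza-CdR and 5.24 and 5.30 with PBS, and no PBS array detected it. The siRNA difference with the drug was 0.27 ± 0.22 (adjusted p = 0.603). The interaction was 0.76 ± 0.32 (adjusted p = 0.999), so the drug effects were not shown to differ. The ACTA1 probe entered the test only through drug-treated arrays, so its drug call is a description. ACTA1 was at least 1.15-fold higher with the drug in SRCAP siRNA cells (1.11 ± 0.22, adjusted p = 0.0348) and was not called in NC cells (0.35 ± 0.22, adjusted p = 0.845). It was lost as a call without background correction (0.40, adjusted p = 0.309), in the authors' table (0.25, adjusted p = 0.414) and with an offset of 50 (0.61, adjusted p = 0.243), and also without any one of the 4 SRCAP siRNA arrays (adjusted p from 0.108 without SRCAP 5-Aza-CdR replicate 2 to 0.453 without SRCAP 5-Aza-CdR replicate 1). ACTA2, smooth muscle actin, rose by 2.53 ± 0.24 in SRCAP siRNA cells and by 2.43 ± 0.24 in NC cells (adjusted p = 0.000206 and 2.00e-04). ENO3, the enolase of muscle, rose by 1.27 ± 0.24 in SRCAP siRNA cells (adjusted p = 0.0208) and read 0.88 ± 0.24 in NC cells (adjusted p = 0.121). Its second probe was called in NC cells (1.59 ± 0.34, adjusted p = 0.0359, at least 2.39-fold) and not in SRCAP siRNA cells (1.53 ± 0.34, adjusted p = 0.0578). No PBS array detected this second probe, which entered the test only through drug-treated arrays, so its call is a description. The call of the first probe was lost in the authors' table (0.78, adjusted p = 0.0605) and where all 8 arrays had to detect a probe (adjusted p = 0.0623), and without SRCAP PBS replicate 1 (adjusted p = 0.226), SRCAP 5-Aza-CdR replicate 1 (0.232) or SRCAP 5-Aza-CdR replicate 2 (0.196).

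TNNI3, the inhibitory troponin subunit of the heart, separated by siRNA, as the level of TNNT1 did. Its drug arrays also lay above its PBS arrays under each siRNA, but the drug differences were not called. They were 0.15 ± 0.22 (adjusted p = 0.967) in SRCAP siRNA cells and 0.28 ± 0.22 (adjusted p = 0.929) in NC cells. TNNI3 read 6.12 and 6.10 in SRCAP siRNA cells with 5-Aza-CdR and 5.89 and 6.03 in those with PBS, against 7.54 and 7.63 in NC cells with 5-Aza-CdR and 7.11 and 7.50 in those with PBS. All SRCAP siRNA arrays lay below all NC arrays. Such separation was not particular to the troponins. CKMT1A, described below, also lay lower on all SRCAP siRNA arrays, and MEF2A and TPM1 lay higher on all of them. The share of all probes that separated by siRNA was not counted. TNNI3 was lower with SRCAP siRNA under the drug (-1.47 ± 0.22, adjusted p = 0.0328), and the difference under PBS was -1.34 ± 0.22 (adjusted p = 0.176). The call was lost without background correction (-0.77, adjusted p = 0.134), in the authors' table (-0.56, adjusted p = 0.162), with an offset of 50 (-1.13, adjusted p = 0.0556), without the filter (adjusted p = 0.0671) and with detection on all 8 arrays (adjusted p = 0.137). It was also lost without NC 5-Aza-CdR replicate 2 (adjusted p = 0.179) or any of the 4 SRCAP siRNA arrays (adjusted p from 0.0776 to 0.495), while the difference stayed between -1.52 and -1.43. In the RefSeq table of GRCh38.p14, TNNI3 is the next protein-coding gene after TNNT1 on chromosome 19. Whether that position bears on their levels was not tested.

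Of the 8 muscle classes plotted, creatine metabolism had the largest share of genes detected on at least 2 arrays, 7 of 8. Over all genes this was 11670 of 18664. CKM and GAMT were among the 7 only through the NC arrays with 5-Aza-CdR, and 3 of the 8 creatine genes were detected on all 8 arrays. GAMT, the methyltransferase that completes creatine synthesis, had 3 probes, of which 1 (ILMN_1756469) was tested. Like the CKM probe, this one was detected only on the 2 arrays of NC cells with 5-Aza-CdR. It read 4.84 and 4.92 in SRCAP siRNA cells with 5-Aza-CdR and 4.69 and 4.58 in those with PBS, against 6.26 and 6.58 in NC cells with 5-Aza-CdR and 4.63 and 4.47 in those with PBS. In NC cells it was at least 1.71-fold higher with the drug (1.87 ± 0.22, adjusted p = 0.000555), and with the drug it was at least 1.83-fold lower in SRCAP siRNA than in NC cells (-1.54 ± 0.22, adjusted p = 0.0286). Like CKM, this probe entered the test only through the group where it was high, so both calls are descriptions. Of the probes not tested, ILMN_1764355 was detected on NC PBS replicate 1 alone, and its drug difference in NC cells was -0.71 on slide 1 and 0.73 on slide 2. ILMN_1794595 was detected on NC 5-Aza-CdR replicate 2 alone, with differences of 0.60 and 1.32. The siRNA call was lost without background correction (-0.57, adjusted p = 0.196), in the authors' table (-0.38, adjusted p = 0.223), with an offset of 50 (-0.92, adjusted p = 0.0808) and without the detection filter (-1.54, adjusted p = 0.0615). It was also lost without NC 5-Aza-CdR replicate 2 (-1.39, adjusted p = 0.172) or any of the 4 SRCAP siRNA arrays (adjusted p from 0.0725 to 0.495). In the authors' table the drug call in NC cells was lost too (0.48, adjusted p = 0.0624). The interaction of GAMT was -1.63 ± 0.31 (adjusted p = 0.574).

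GATM, which makes the precursor that GAMT methylates, read 6.09 and 6.39 in SRCAP siRNA cells with 5-Aza-CdR and 6.20 and 5.79 in those with PBS, against 5.97 and 4.82 in NC cells with 5-Aza-CdR and 5.89 and 5.05 in those with PBS. The creatine transporter SLC6A8 was the highest of the class on this scale, at 9.50 and 9.55 in SRCAP siRNA cells with 5-Aza-CdR and 10.31 and 9.82 in those with PBS, against 9.77 and 9.71 in NC cells with 5-Aza-CdR and 9.57 and 9.89 in those with PBS, although levels of different probes are not comparable. The mitochondrial creatine kinase CKMT1A read 5.996 and 6.18 in SRCAP siRNA cells with 5-Aza-CdR and 6.22 and 5.82 in those with PBS, against 6.76 and 6.78 in NC cells with 5-Aza-CdR and 6.77 and 6.59 in those with PBS. CKMT1A and CKMT1B are near-identical copies, so their probes may share targets. GATM, SLC6A8, CKMT1A and CKMT1B were not called in any contrast.

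**Figure D5:**
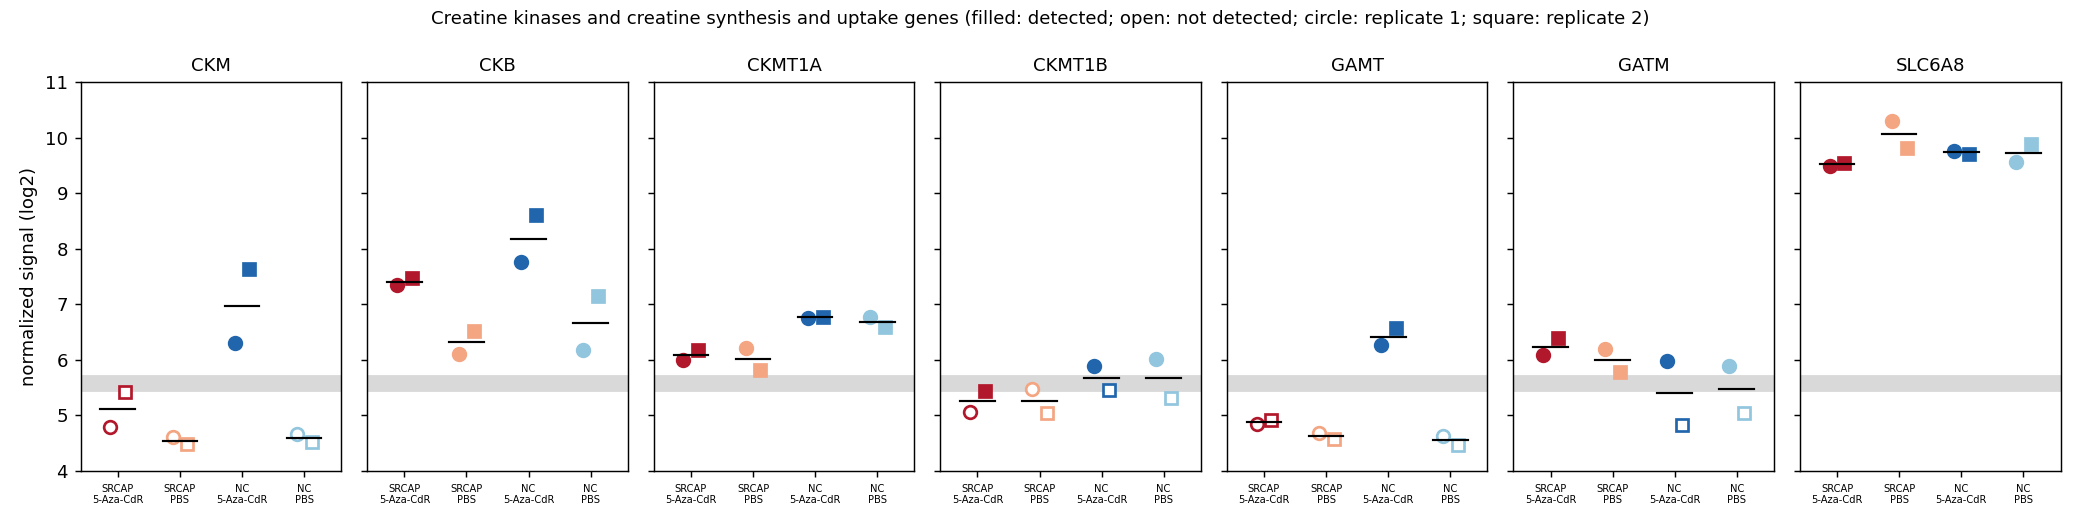
Normalized log2 signal (vertical axis) of 7 creatine kinase, creatine synthesis and creatine uptake genes in the 4 groups (horizontal axis). Points are single arrays, lines are means, open points were not detected and the grey band spans the lowest detected signals. The tested probes of CKM and GAMT stand above the band on the 2 arrays of NC siRNA with 5-Aza-CdR only.

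Among the regulators of muscle genes, MYOD1, MYF5 and MYF6 were detected on no array, and 10 of 18 were detected on at least 2 arrays. By the probe used for each, none of these 10 was called in any contrast. The 9 detected on all arrays were MEF2A, MEF2D and SRF, which bind muscle promoters, the developmental factors PAX7, GATA4 and NKX2-5, and ID1, ID2 and ID3, which hold back E-box binding factors. Of 10 skeletal and cardiac markers, MYH7, MYH2, RYR1 and CASQ1 were detected on no array, and the summed level of the 3 measured stood at 7.70 to 7.83 in SRCAP siRNA cells with 5-Aza-CdR and 7.65 to 7.79 in those with PBS, against 7.43 to 7.79 in NC cells with 5-Aza-CdR and 7.12 to 7.68 in those with PBS. Of 7 smooth muscle markers 4 were measured, with summed levels of 13.31 to 13.48 in SRCAP siRNA cells with 5-Aza-CdR and 12.81 to 12.90 in those with PBS, against 13.08 to 13.36 in NC cells with 5-Aza-CdR and 12.34 to 12.71 in those with PBS. MYH11, CNN1 and LMOD1, which define smooth muscle, were detected on no array. The summed smooth muscle level was higher on the drug arrays than on the PBS arrays under each siRNA. The 4 measured markers did not all rise. The drug difference of SMTN was -0.49 in SRCAP siRNA cells and 0.03 in NC cells. In the same order the differences were 1.13 and 1.24 for TAGLN, 1.59 and 0.72 for ACTG2, and 2.53 and 2.43 for ACTA2. No PBS array detected ACTG2, which entered the test only through drug-treated arrays. Its differences are thus taken from levels below detection. Of these markers, by the probe used for each, only ACTA2 was called. Of 8 fibroblast markers none entered the test and 7 were detected on no array. The summed level of the 4 measured colon markers was 12.72 to 12.78 in SRCAP siRNA cells with 5-Aza-CdR and 12.20 to 12.33 in those with PBS, against 12.91 to 13.49 in NC cells with 5-Aza-CdR and 12.58 to 12.98 in those with PBS. It was thus lower on the SRCAP siRNA arrays than on the NC arrays under each treatment, and higher with the drug in SRCAP siRNA cells, while the NC ranges overlapped. By the probe used for each, KRT8, KRT18, EPCAM and CDX2 were not called in any contrast. The part of these marker levels in the member results was not tested.

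The genes whose levels over the 8 arrays were most like those of MYL4, by Pearson's r among 11669 other genes, were NNAT (0.998), CT55 (0.998), VCX3B (0.997), VCX (0.997) and SGCE (0.997). Their drug differences in SRCAP siRNA and NC cells were 2.91 and 4.29 for NNAT, 2.77 and 3.99 for CT55, 5.76 and 8.17 for VCX3B, 5.60 and 7.90 for VCX, and 3.75 and 5.00 for SGCE. SGCE encodes a sarcoglycan and NNAT a small imprinted membrane protein, while CT55, VCX3B and VCX are genes of the testis and germ line, of which VCX3B and VCX are close copies whose probes may share targets. Those most like CKM were FAM50B (0.992), LARP6 (0.990), MPC1L (0.989), SUMO1P1 (0.986) and TCEAL7 (0.984). The drug differences of these were 0.50 and 1.96 for FAM50B, 0.23 and 1.66 for LARP6, 0.48 and 1.76 for MPC1L, 0.43 and 1.42 for SUMO1P1, and 0.26 and 2.61 for TCEAL7, in SRCAP siRNA and NC cells. The 8 points share 4 groups and 2 slides, so r mostly ranks genes by their group pattern.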

How the data were processed

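Gene expression was measured in 8 RKO samples (4 groups of 2 arrays). The submitters' processing notes name BeadStudio 3.0.1 for the bead summaries. The intensity columns that the authors deposited hold the mean signal of each bead type on a linear scale, with no background taken off and no normalization. The deposited detection p-value compares each probe with the negative control beads of its array. A further deposited table holds what the authors describe as log2 values after robust spline normalization in lumi, whose version is not given in the sources used here, and it served as an alternative. The files state no genome build.

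The signal table had 48805 lines with a probe ID, and 48801 probes remained after 2 repeated IDs were dropped. The neqc function of limma 3.58.1 (R 4.3.3) then applied normexp background correction, with the negative controls inferred from detection p-values, an offset of 16, quantile normalization and log2. A probe was kept if detected (p under 0.01) on 2 or more of the 8 arrays, whatever the group (20328). Symbols came from the platform annotation, brought up to date by gene ID from a RefSeq table. Outside the 8 members, each gene stands for its brightest kept probe. Against a group in which no array detected a probe, a fold is a bound. For each array of that group the probe took its own value or that of the dimmest detected probe, whichever was higher, and the average of these was set against the average of the brighter group. The number of arrays limits the precision.

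A limma model with a coefficient for each group used all 8 arrays (4 residual degrees of freedom), and 5 contrasts were tested two-sided with Benjamini-Hochberg adjustment over all kept probes, called under 0.05. SAM, the method that the study applied to pairs of groups, was not used here. The array names in the labels put replicate 1 of each group on slide 1 and replicate 2 on slide 2, so the slide, which equals the replicate number, pairs the samples. Deviations of same-slide arrays from their group means correlated at 0.00347 to 0.711 over 6 pairs of groups. The fit was tested on simulated data for the drug effect in NC cells (20328 probes), where 18% of 50 probes raised by 1 log2 unit, 78% of those raised by 2 and 94% of those raised by 3 were called. The simulation drew independent noise with no slide effect and changed probes in the NC 5-Aza-CdR group alone. These rates therefore do not measure the power of the fit on the real arrays.

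The members, lists and tests were chosen with earlier results of these data known. Named genes are all probes of the members, SRCAP, genes of the wider muscle lists that were called or detected on all 8 arrays, and the 5 genes most like MYL4 and CKM. GATM, CKMT1B and the genes named as not detected fall outside this rule and were named after their values were seen, and the marker genes come from lists of their own. Alternatives were no background correction, the authors' table, an offset of 50, a detection p under 0.05 in the filter, no detection filter, detection on all 8 arrays, the slide as a block, only the groups compared, and each array left out in turn.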

Additional observations from a re-analysis of the deposited data

How the results depend on the processing

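Over the alternatives other than leaving out arrays, 28 counts of called probes, either of all probes or of the members, moved. A count moved if it changed by over 1.5 times or went to or from 0. In SRCAP siRNA cells the drug called 385 probes, and 234 without background correction, 190 in the authors' table, 75 with detection on all 8 arrays and 233 to 425 with 1 array left out. In NC cells it called 551 probes, and 348, 265, 73 and 413 to 529 under the same settings. Under 5-Aza-CdR the siRNA called 62 probes, and 0 without background correction, 0 in the authors' table, 38 with an offset of 50, 5 without the filter, 1 with detection on all 8 arrays, 1132 with the replicate block (slide), 496 with only the 2 groups and 0 to 234 with 1 array left out, lowest without NC 5-Aza-CdR replicate 2 and highest without NC PBS replicate 1. Under PBS it called 2, and 0 without background correction, in the authors' table, without the filter and with only the 2 groups, 1 with an offset of 50, 66 with the replicate block and 0 to 4 with 1 array left out. With the replicate block the drug called 562 probes in SRCAP siRNA cells and 707 in NC cells. The interaction called 0 throughout, and 499 probes (2.45%) had an unadjusted p under 0.05 in limma, the only tool run. The cause of these shifts was not tested.

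Of the member probes, the drug called 1 in SRCAP siRNA cells, and 2 with the replicate block or only those 2 groups. In NC cells it called 2, and 1 without background correction, in the authors' table, without the filter, with detection on all 8 arrays (where CKM is not tested) and with only the 2 groups, 3 with the replicate block and 2 to 3 with 1 array left out. The third was CKB, called without NC PBS replicate 2 (2.01, adjusted p = 0.00692) and without NC 5-Aza-CdR replicate 1 (adjusted p = 0.0161). The siRNA under 5-Aza-CdR called 0, and 3 with the replicate block, 1 with only the 2 groups and 0 to 1 with 1 array left out. That one was CKM, at -2.53 to -1.19, called without NC 5-Aza-CdR replicate 1 (adjusted p = 0.00617) or either NC PBS array (adjusted p = 0.0379). Leaving out arrays moved the CKM increase in NC cells between 1.70 and 3.04, called each time. The direction turned near 0 in 2 cases: TNNT1 with the drug in SRCAP siRNA cells (-0.0076 without background correction) and MYL4 between siRNAs under PBS (-0.0040 in the authors' table). With 1 array left out, values spanned 0 for TNNT1 with the drug (-0.40 to 0.42 in SRCAP siRNA and -0.16 to 0.34 in NC cells), for the siRNA under PBS (CKB -0.85 to 0.14, MYL4 -0.15 to 0.22, CKM -0.12 to 0.021) and for the interaction (CKB -0.92 to 0.064, TNNT1 -0.49 to 0.33). Of the calls outside the members, those of TPM2 and ACTA2 held in all 16 alternatives, and the replicate block changed no member call other than those named.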
